A study of Arabidopsis thaliana with 42 samples.

Results

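Transcripts of 2-week-old Arabidopsis thaliana seedlings were compared between 2 double mutants, ddm1cmt2 and ddm1nrpe1. The comparison rests on 6 RNA libraries, 3 of each genotype, chosen by the genotype in their labels, out of 12 RNA libraries and 42 samples of all kinds in the study. Each ddm1cmt2 library lacks DDM1 and CMT2 function by its label, and each ddm1nrpe1 library, spelled ddm1npre1 in the labels, lacks DDM1 and NRPE1 function. The ddm1 mutation is thus common to both sides, and also to the ddm1 and ddm1nrpd1 libraries, 3 of each, that are given for orientation. No wild-type RNA library was analysed here, so every value is a difference between mutants that all lack DDM1. Seed had been kept at 4 °C in the dark for 7 days, and plants grew on sucrose-containing agar medium at 22 °C with 16 h of light and 8 h of dark. Whole seedlings gave polyA RNA, and the labels name neither the alleles nor the time of day of harvest. In such bulk samples, fewer cells of a type and less RNA per cell cannot be told apart.

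DDM1 is a nucleosome remodeller that lets DNA methyltransferases reach transposons packed in heterochromatin. CMT2 is a chromomethylase that maintains methylation outside CG sites, mostly in long heterochromatic transposons, guided by methylation of histone H3 at lysine 9. NRPE1 is the largest subunit of RNA polymerase V, whose transcripts serve as scaffolds for small RNAs in RNA-directed DNA methylation (RdDM), a route best known at short transposons and at transposon edges. Small RNAs of this route start from RNA polymerase IV, whose largest subunit is NRPD1. The study asked how the CMT2 route and RdDM interact, and setting ddm1cmt2 against ddm1nrpe1 asks how the transcripts differ when one or the other route is lost without DDM1.

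Total counts were 10.8, 18.1 and 11.7 M in ddm1cmt2 and 16.3, 18.1 and 18.8 M in ddm1nrpe1. Across loci, libraries of one genotype correlated at r = 0.974 to 0.991 on the log2 scale and libraries of different genotypes at 0.869 to 0.905. Replicates differed by more than counting noise, with a chi-square of 5.56 to 24.0 for each degree of freedom, so each library was counted as a sample. Whether replicates came from separate plants is not stated, so p-values measure only how far these samples spread, which may be a technical spread. Levels below are CPM, counts scaled to a common library total after TMM normalization, and are given for replicates 1, 2 and 3 in that order or as mean ± SD of 3 libraries. A log2 fold change is ddm1cmt2 over ddm1nrpe1 with its standard error, and a locus is called higher or lower where edgeR's quasi-likelihood F test gave a p under 0.05 after Benjamini-Hochberg adjustment over all tested loci. CPM is not divided by transcript length, so levels are compared between libraries and not between genes, apart from one sorting of TE loci by CPM. No source used here gives the strand setting or the treatment of reads with several matches, so transposon copies, close paralogs and overlapping genes may share reads.

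Against the other double mutant, neither mutated gene had less transcript in the libraries labelled as its mutant. NRPE1 (AT2G40030) stood at 11.0, 14.0 and 10.3 CPM in ddm1cmt2 and 55.7, 55.1 and 65.2 CPM in ddm1nrpe1, a log2 fold change of -2.30 ± 0.15 (edgeR adjusted p = 5.8e-09). All 3 ddm1nrpe1 libraries lay above all others, with ddm1 at 13.1 ± 1.08 and ddm1nrpd1 at 7.94 ± 1.75 CPM. CMT2 (AT4G19020) stood at 25.9, 26.5 and 28.0 CPM in ddm1cmt2 and 16.2, 16.9 and 17.9 CPM in ddm1nrpe1, and was higher in ddm1cmt2 than in ddm1nrpe1 (0.66 ± 0.11, edgeR adjusted p = 1.6e-04). Its level in ddm1 was 31.8 ± 2.99 CPM, and all 3 ddm1cmt2 libraries lay below all 3 of ddm1, by -0.24 on the log2 scale, which did not pass the test (edgeR adjusted p = 0.105). No source used here gives the place of the lesions within these genes, so these levels do not check the labels, and the genotypes are used as labelled. DDM1 (0.24 ± 0.16) and NRPD1 (0.08 ± 0.21) did not pass the test.

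More loci differed between the genotypes than did not: of 24839 tested loci, 13687 (55.1%) were called, 6686 (26.9%) higher in ddm1cmt2 and 7001 (28.2%) lower. Differences of at least 2-fold numbered 2197 higher (8.84%) and 2729 lower (11.0%). The 3 libraries of one genotype did not overlap those of the other at 14903 loci (60.0%), and the median log2 fold change of all tested loci was -0.00. A count for a gene group is therefore read against these shares. In the same fit, 8971 loci (36.1%) differed between ddm1cmt2 and ddm1 and 12527 (50.4%) between ddm1nrpe1 and ddm1, comparisons that share the ddm1 libraries.

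Transposon loci (TEs, the 1936 loci with a TE identifier) were lower in ddm1cmt2 more often than higher. Of 1903 tested, 898 (47.2%) were lower and 304 (16.0%) higher, with a median log2 fold change of -0.41. At least 2-fold differences numbered 640 lower and 128 higher. Their share of all counts was 4.59%, 5.23% and 5.14% in ddm1cmt2 and 6.64%, 6.57% and 6.84% in ddm1nrpe1, and the groups did not overlap. The means were 4.99% ± 0.347 and 6.69% ± 0.137 (SD, n = 3), a difference of -1.70 percentage points (two-sided exact permutation p = 0.1, the smallest that 3 against 3 libraries allow, also after adjustment over 5 locus classes). The mean TE shares of ddm1 (6.02% ± 0.470) and ddm1nrpd1 (5.60% ± 0.460) lay between them.

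Pseudogene loci, many of which are degenerate transposon genes in this annotation, had a like split. Of 2097 tested, 937 (44.7%) were lower and 373 (17.8%) higher, with a median of -0.34, and their share of counts was 4.59% to 5.26% against 7.30% to 7.55%. The mean pseudogene shares of ddm1 (6.28% ± 0.480) and ddm1nrpd1 (6.19% ± 0.618) lay in between. TE and pseudogene identifiers can cover the same element and share its reads, so the counts are not separate evidence. Protein-coding nuclear loci divided more evenly, with 5796 of 20211 higher and 4997 lower and a median of 0.04. They took 87.9% ± 0.700 of counts in ddm1cmt2 and 84.2% ± 0.217 in ddm1nrpe1. Loci of the plastid genome stood apart in the other direction, with 97 of 110 higher and 8 lower.

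**Figure D1:**
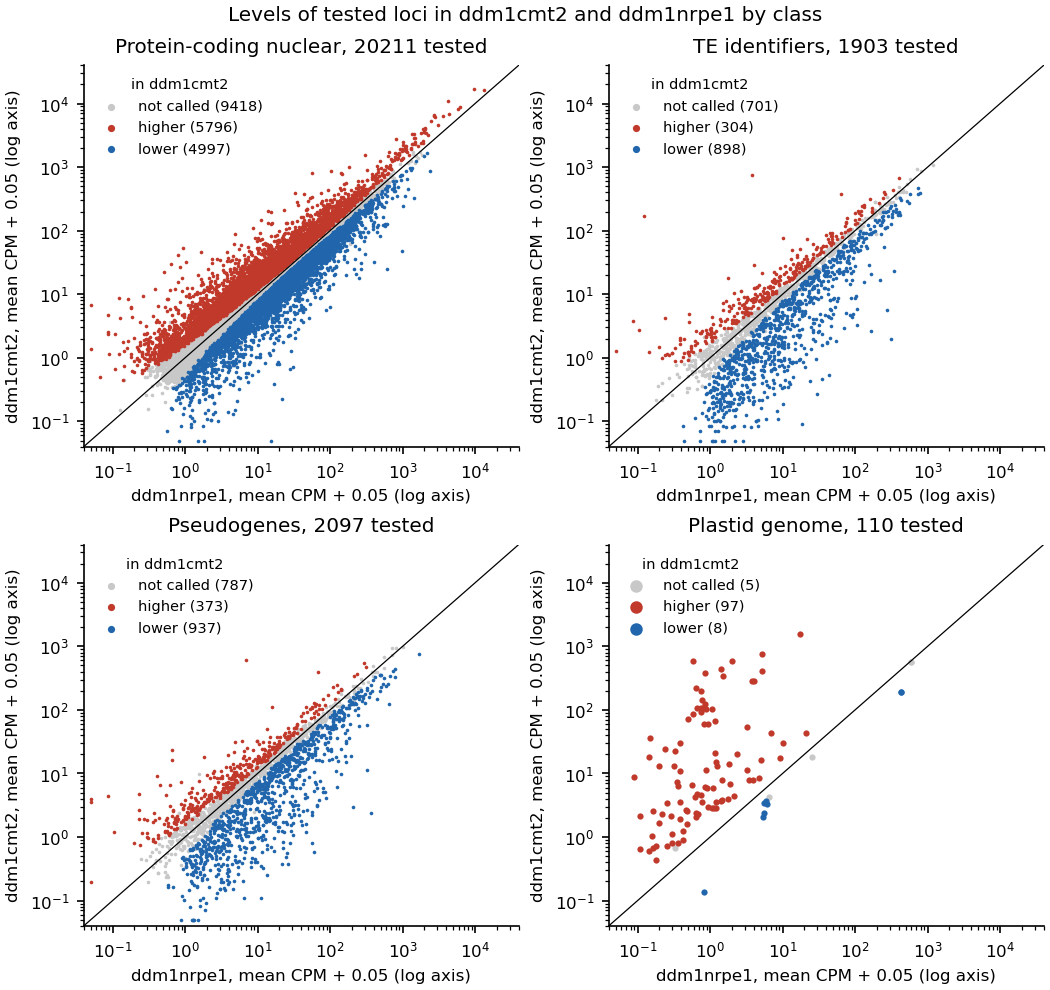
Mean level of each tested locus in ddm1nrpe1 (x axis) and ddm1cmt2 (y axis), both in CPM plus an offset of 0.05 on log axes, in 4 locus classes, with loci called higher in ddm1cmt2 in red, lower in blue and not called in grey. TE and pseudogene loci lie more often below the diagonal than above it (median log2 fold changes of -0.41 and -0.34), and 898 of 1903 and 937 of 2097 are called lower. Protein-coding loci lie on both sides, and 97 of 110 plastid loci are called higher.

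TE loci were also sorted by CPM in ddm1, an order that depends on transcript length as well as on level. Sorted by mean level in ddm1, libraries that neither side of the comparison uses, 226 TE loci were under 0.5 CPM, and 194 of these passed the filter. Of the 194, 170 were lower in ddm1cmt2 and 6 higher, with a median of -3.25, but a locus this low could pass the filter only where another genotype was high, so its count is a description. Between 0.5 and 5 CPM, 737 of 738 loci were tested, 361 were lower and 86 higher, and the median was -0.71. At 5 CPM and over, all 972 were tested, 367 were lower and 212 higher, and the median was -0.11. By chromosome, the share of tested TE loci called lower ran from 38.4% on chromosome 5 to 50.8% on chromosome 4, and the median from -0.51 to -0.18. This sorting was chosen after the counts were known.

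The TE loci with the largest falls were nearly silent in ddm1cmt2. AT3TE51900 stood at 1.92, 2.01 and 1.83 CPM in ddm1cmt2 and 189.9, 331 and 416 CPM in ddm1nrpe1 (-7.33 ± 0.33, edgeR adjusted p = 6.1e-09). Every ddm1nrpe1 library lay far above every ddm1cmt2 library, and the ddm1 mean was 2.96 ± 0.688 CPM against 144 ± 22.7 in ddm1nrpd1. AT3TE51910, the next identifier in number, had 0, 0.122 and 0 CPM in ddm1cmt2 and 10.6, 19.2 and 25.0 CPM in ddm1nrpe1, a ratio of ddm1nrpe1 over ddm1cmt2 counts of 345 (95% counting interval 95.2 to 2851). Its only ddm1cmt2 counts came from replicate 2. Intervals and floors of this kind cover counting error only.

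A further 4 TE loci had 0 counts in all 3 ddm1cmt2 libraries, so that only a bound can be given, against a floor of 3 counts over the group. AT2TE27505 was at least 35.0-fold lower, with 2.90, 3.09 and 2.48 CPM in ddm1nrpe1. AT2TE69490 was at least 26.9-fold lower (2.60, 2.20 and 1.72 CPM), AT1TE51745 at least 18.6-fold (1.36, 1.32 and 1.78 CPM) and AT1TE45355 at least 17.6-fold (1.66, 1.21 and 1.40 CPM). In ddm1 these 4 loci were also near 0, at means of 0.101, 0.0732, 0.0320 and 0.105 CPM. In ddm1nrpd1 AT1TE51745 was low as well, at 0.0793 ± 0.0305 CPM, while the other 3 were at 2.64 ± 0.371, 2.76 ± 0.588 and 1.23 ± 0.562 CPM.

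In the opposite direction, 3 TE loci with close identifier numbers on chromosome 4 were far higher in ddm1cmt2 than in ddm1nrpe1. AT4TE15820 stood at 713, 875 and 669 CPM in ddm1cmt2 and 2.66, 3.53 and 5.17 CPM in ddm1nrpe1 (7.62 ± 0.28, edgeR adjusted p = 7.0e-11). No library of one genotype came near the other, and ddm1 and ddm1nrpd1 held 1197 ± 68.8 and 402 ± 109.8 CPM, so that ddm1nrpe1 was the low genotype of the 4. AT4TE15825 showed the same at 177, 193 and 144 CPM in ddm1cmt2 and 0.0592, 0 and 0.162 CPM in ddm1nrpe1 (11.01 ± 0.40, or 12.17 without ddm1nrpe1 replicate 3, which has the highest ddm1nrpe1 level), and AT4TE15835 at 3.63, 4.02 and 4.75 CPM in ddm1cmt2 and 0.237, 0.220 and 0.108 CPM in ddm1nrpe1 (4.41 ± 0.44). With AT4TE15820 and AT4TE15825 left out, the TE share of counts was 4.90% ± 0.343 in ddm1cmt2 and 6.69% ± 0.137 in ddm1nrpe1. AT3TE47880 had 0 counts in ddm1nrpe1 and was at least 21.1-fold higher in ddm1cmt2. For AT2TE54780 and AT5TE52850, with 1 to 3 counts in ddm1nrpe1, the ratios were 97.0 (95% counting interval 26.3 to 809) and 49.8 (95% counting interval 16.6 to 245), and the fitted fold of AT5TE52850 grew by over 1.5 times without ddm1nrpe1 replicate 3 (6.20 on the log2 scale). AT2TE54780 was near 0 in ddm1 too, at 0.0320 ± 0.0555 CPM against 5.35, 2.92 and 3.10 CPM in ddm1cmt2.

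Several genes known to be silenced or switched by DNA methylation differed by large factors. SDC (AT2G17690), an F-box gene kept silent by methylated repeats in its promoter, stood at 17.4, 28.6 and 28.8 CPM in ddm1cmt2 and 509, 595 and 734 CPM in ddm1nrpe1 (-4.61 ± 0.21, edgeR adjusted p = 3.3e-10). The ddm1cmt2 libraries overlapped the ddm1 libraries, at 23.6, 23.8 and 26.1 CPM, and all 3 ddm1nrpe1 libraries lay above both, near the ddm1nrpd1 mean of 502 ± 83.7 CPM. PUM9 (AT1G35730), which codes for a Pumilio RNA-binding protein, followed the same order at 0.505, 0.669 and 0.822 CPM in ddm1cmt2 and 25.6, 34.7 and 30.7 CPM in ddm1nrpe1 (-5.48 ± 0.24, edgeR adjusted p = 4.1e-11), with ddm1 at 0.961 ± 0.208 and ddm1nrpd1 at 22.6 ± 4.87 CPM. ROS1 (AT2G36490), an enzyme of active demethylation whose own promoter responds to methylation, went the other way. Its levels were 33.3, 43.7 and 31.1 CPM in ddm1cmt2 and 1.36, 2.48 and 2.96 CPM in ddm1nrpe1 (3.98 ± 0.22, edgeR adjusted p = 3.4e-09), against 42.1 ± 3.91 CPM in ddm1 and 2.64 ± 0.672 in ddm1nrpd1. Between ddm1cmt2 and ddm1, SDC (0.03 ± 0.20, edgeR adjusted p = 0.924) and ROS1 (-0.22 ± 0.18, edgeR adjusted p = 0.365) did not pass the test.

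FWA (AT4G25530), a homeodomain gene whose loss of methylation delays flowering, was low in ddm1cmt2 at 1.72, 0.426 and 1.64 CPM and higher in ddm1nrpe1 at 18.0, 14.7 and 16.3 CPM (-3.82 ± 1.32, edgeR adjusted p = 0.0365). This call was lost whichever of the 6 libraries was left out (edgeR adjusted p from 0.0630 to 0.128). In ddm1 the gene spread from 0.988 to 14.7 and 71.5 CPM among replicates of one genotype. The model of all 12 libraries takes its spread from these ddm1 libraries too, so the p-values for FWA do not rest on the 6 compared libraries alone. The CACTA-family transposon gene CACTA1 (AT2G12210) was higher in ddm1cmt2, at 343, 421 and 405 CPM in ddm1cmt2 and 65.9, 56.6 and 80.6 CPM in ddm1nrpe1 (2.52 ± 0.18, edgeR adjusted p = 8.0e-08), and above its ddm1 mean of 159 ± 38.5 CPM too. The Mutator-like element gene listed as MU1 (AT4G08680) was also higher, at 0.68. EVD (AT5G17125), a copia retrotransposon that becomes mobile without DDM1, overlapped between the genotypes at 125, 153 and 53.2 CPM in ddm1cmt2 and 92.9, 70.1 and 104 CPM in ddm1nrpe1 (0.31 ± 0.58). Both lay above the ddm1 libraries, at 24.4, 1.73 and 20.8 CPM.

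Of the 9 tested genes on the list of those silenced by DNA methylation, 3 were higher (CACTA1, MU1 and the immune receptor gene SNC1) and 2 lower (SDC and FWA), with a median of 0.04, and the lower count was 1 without ddm1cmt2 replicate 2 or 3 or without any ddm1nrpe1 replicate, where FWA failed. The shares called with all libraries, 33.3% higher and 22.2% lower, lie near the 26.9% and 28.2% of all tested loci. QQS (-0.11), PAI2 (0.04) and EPF2 (-0.50) did not pass. Of 8 copies of the heat-responsive retrotransposon ONSEN, 5 were in the table and 1, AT1G21945, could be tested. It was higher in ddm1cmt2, at 1.12 ± 0.281 CPM against 0.203 ± 0.0794 CPM (2.36 ± 0.41), and highest in ddm1, at 2.54 ± 0.331 CPM.

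**Figure D2:**
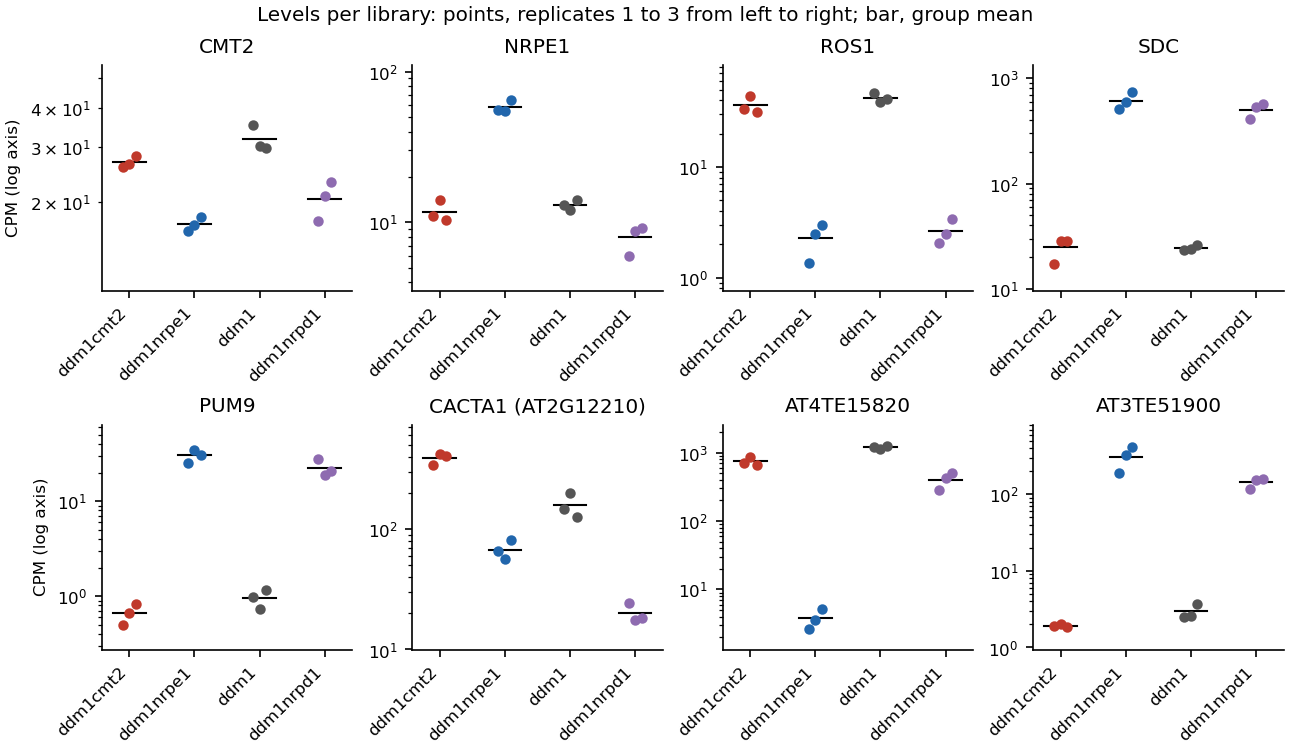
Levels of 8 loci in CPM (log axes that differ between panels) in each of the 12 libraries, with the 3 replicates of a genotype as points and the genotype mean as a bar. In SDC, PUM9 and AT3TE51900 the ddm1nrpe1 points lie far above those of ddm1cmt2, and in ROS1, CACTA1 and AT4TE15820 far below. NRPE1 is highest in ddm1nrpe1, while CMT2 is higher in ddm1cmt2 than in ddm1nrpe1 but lower than in ddm1.

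Genes of the methylation machinery differed by smaller factors than SDC and ROS1. In the Pol IV arm of RdDM, which makes the small RNAs, 5 of 10 genes (50%) were higher in ddm1cmt2 and 0 lower, with a median of 0.61. Of all tested loci, 26.9% were higher and 28.2% lower. In ddm1cmt2 replicate 2 was the highest for 9 of the 10, and leaving out any 1 of the 6 libraries gave 5 or 6 higher. CLSY1, a chromatin factor that recruits Pol IV, stood at 6.46, 9.86 and 7.40 CPM in ddm1cmt2 and 2.43, 3.03 and 3.56 CPM in ddm1nrpe1 (1.41 ± 0.19), and RDR2, the RNA polymerase that makes the double strand, was higher by 0.79. DCL3, which dices it, was higher by 0.74 on the log2 scale, the shared Pol IV and Pol V subunit NRPD2A by 0.57 and the small RNA methylase HEN1 by 0.54. In the Pol V arm, 4 of 13 were higher (30.8%) and 2 lower (15.4%), against 26.9% and 28.2% of all tested loci (median 0.29). AGO4 (0.68 ± 0.15), which carries the small RNAs to Pol V transcripts, was higher, as were SUVH9 (0.69 ± 0.10), which binds methylated DNA, MORC6 (0.80 ± 0.12), an ATPase of silencing, and SUVR2 (0.69 ± 0.20). NRPE1 itself and RDM1 (6.16, 5.78 and 6.21 CPM in ddm1cmt2 and 13.6, 14.7 and 9.43 CPM in ddm1nrpe1, -1.06 ± 0.17), a part of the DDR complex that Pol V needs, were the 2 lower.

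Among DNA methyltransferases and maintenance factors, 4 of 11 were higher (36.4%) and 1 lower (9.09%), against 26.9% and 28.2% of all tested loci (median 0.30). Beside CMT2 these were the ubiquitin ligases VIM1 (0.53 ± 0.12) and VIM3 (0.94 ± 0.18) that maintain CG methylation, and the H3K9 methyltransferase SUVH6 (0.94 ± 0.10). Its relative SUVH4 (-0.50 ± 0.13) was lower. MET1 (0.30), CMT3 (0.07) and DRM2 (-0.32) did not pass. Of the demethylation genes, 3 of 9 were higher (33.3%) and 2 lower (22.2%), near the 26.9% and 28.2% of all tested loci (median 0.30). With ROS1, its relative DML3 (0.98 ± 0.19) and the phosphatase ZDP (0.66 ± 0.14) were higher, and DML2 (-0.91 ± 0.15) and the methyl-binding protein gene MBD7 (-0.86 ± 0.15) lower. Post-transcriptional silencing moved little, with RDR6 (0.25) higher and AGO2 (-0.65 ± 0.13) and AGO3 (-0.81 ± 0.25) lower among 9 (median 0.08). These shares of 11.1% higher and 22.2% lower lie below the 26.9% and 28.2% of all tested loci. RDR6 failed without ddm1cmt2 replicate 2 or without ddm1nrpe1 replicate 1 or 2, without ddm1cmt2 replicate 1 the higher count was 2, and AGO3 failed without ddm1nrpe1 replicate 1.

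Linker and variant histones were higher in 5 of 9 cases (55.6%) and lower in 1 (11.1%), against 26.9% and 28.2% of all tested loci (median 0.73). In ddm1cmt2 replicate 1 was the highest for 8 of the 9, and 4 were higher without it. Linker histones H1.1 and H1.2, which compact heterochromatin and hinder methyltransferases there, stood at 183, 175 and 149.6 CPM in ddm1cmt2 and 90.1, 82.8 and 95.7 CPM in ddm1nrpe1 (0.92 ± 0.10) and at 164, 145 and 119.7 CPM in ddm1cmt2 and 82.3, 86.9 and 90.0 CPM in ddm1nrpe1 (0.73 ± 0.10), with no overlap. Both were also above ddm1nrpd1 (82.0 CPM for each), and ddm1 held 142 ± 9.45 and 139 ± 2.97 CPM. H2A.W, a variant that marks heterochromatin, was higher at HTA6 (1.05 ± 0.14) and HTA12 (1.09 ± 0.17), while HTA7 did not pass (-0.01 ± 0.11). The H2A.Z gene HTA9 was lower (-0.62 ± 0.11). The stress-linked linker histone H1.3 (1.05 ± 0.39) was called higher, and failed without ddm1cmt2 replicate 1 or 3 or without any ddm1nrpe1 replicate.

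Protein-coding genes with the largest differences belonged to varied families. TPS03 (AT4G16740), a terpene synthase, was counted in ddm1cmt2 alone among the 4 genotypes, at 10.2, 4.50 and 5.30 CPM, with 0 counts in all 9 other RNA libraries, so it was at least 112-fold higher than in ddm1nrpe1. BFT (AT5G62040), a relative of the flowering regulators FT and TFL1, was at least 24.0-fold higher (1.11, 1.28 and 1.64 CPM in ddm1cmt2). NIG1 (AT5G46830), a salt-responsive basic helix-loop-helix factor, stood at 9.99, 10.3 and 5.93 CPM in ddm1cmt2 and 0.0592, 0 and 0.162 CPM in ddm1nrpe1 (6.72 ± 0.61, or 7.88 without ddm1nrpe1 replicate 3). For AT4G33467 and AT5G30520 the ratios to ddm1nrpe1 were 66.1 (95% counting interval 17.8 to 554) and 67.5 (95% counting interval 18.2 to 566), the former growing without ddm1nrpe1 replicate 2 (8.16 on the log2 scale), and AT1G51090 was higher by 6.12 ± 0.41. Beside PRR5, given below, the higher genes with the smallest adjusted p were CYP706A6, CYP707A2, AT1G13930 and PHS2. The cytochrome P450 gene CYP706A6 stood at 149, 159.5 and 140.1 CPM in ddm1cmt2 and 9.76, 10.5 and 13.3 CPM in ddm1nrpe1 (3.74 ± 0.12, edgeR adjusted p = 1.9e-12), and AT1G13930 at 982, 864 and 797 CPM in ddm1cmt2 and 103, 107 and 99.9 CPM in ddm1nrpe1 (3.09 ± 0.11). CYP707A2, an enzyme that breaks down abscisic acid, stood at 28.5, 33.3 and 35.2 CPM in ddm1cmt2 and 1.12, 0.937 and 0.862 CPM in ddm1nrpe1 (5.05 ± 0.18, edgeR adjusted p = 6.2e-12). The glucan phosphorylase gene PHS2 stood at 365, 428 and 395 CPM in ddm1cmt2 and 32.8, 33.9 and 30.9 CPM in ddm1nrpe1 (3.61 ± 0.14), where ddm1 and ddm1nrpd1 were near ddm1nrpe1 at 35.3 ± 6.32 and 30.5 ± 4.90 CPM.

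On the lower side, AT2G20613 and AT1G28650 had 0 counts in ddm1cmt2. The bound was at least 22.3-fold lower for AT2G20613, and for AT1G28650 it was at least 18.3-fold lower. AT1G28660, the next locus to AT1G28650, was lower too, at 3.23, 3.04 and 4.66 CPM in ddm1cmt2 and 46.3, 46.5 and 36.0 CPM in ddm1nrpe1 (-3.57 ± 0.17). Ratios of ddm1nrpe1 to ddm1cmt2 were 62.6 (95% counting interval 11.0 to 2501) for the SKP1-like gene SK9, 56.1 (95% counting interval 19.0 to 274) for the cell wall enzyme gene XTH25 and 52.2 (95% counting interval 14.2 to 435) for AT3G03670. The fitted log2 fold change of SK9 was -7.68 without ddm1cmt2 replicate 1 and -4.90 without replicate 2, and that of XTH25 was -6.61 without replicate 3. AT5G34830 was lower (-6.61 ± 0.80, or -8.57 without ddm1cmt2 replicate 2). AT2G33175 (-2.74 ± 0.13) was among the 5 lower genes with the smallest adjusted p, with SDC, PUM9, LHY and AT1G28660. The call of AT3G48960 rested on few libraries. It had 0 counts in ddm1cmt2 and 25.3, 0.110 and 19.9 CPM in ddm1nrpe1, where replicate 2 was nearly silent. It was called (edgeR adjusted p = 0.0250), and failed without ddm1cmt2 replicate 2 or without ddm1nrpe1 replicate 1 or 3 (edgeR adjusted p from 0.0546 to 0.0634). With all libraries kept it failed in limma-voom (-6.60, adjusted p = 0.171) and with the replicate block (edgeR adjusted p = 0.0646).

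**Figure D3:**
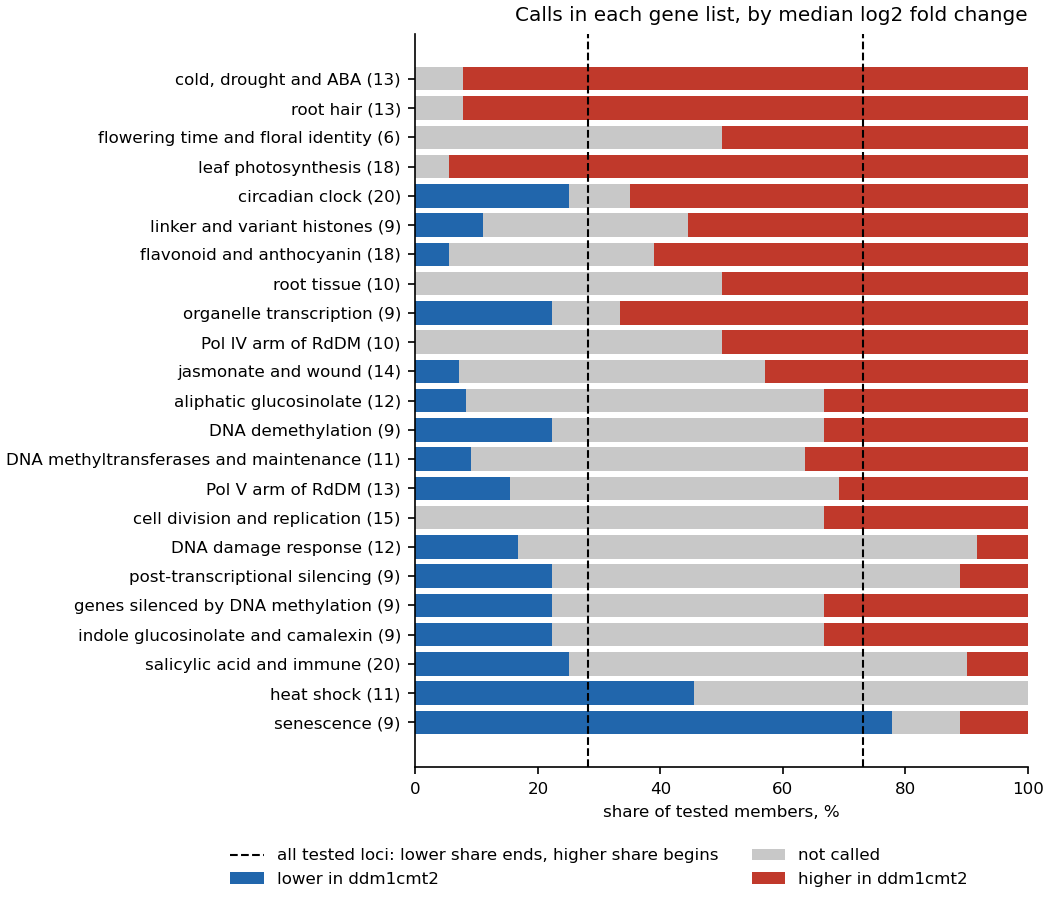
Share of tested members of each gene list (number tested in brackets) that were lower in ddm1cmt2 (blue, from the left), not called (grey) or higher (red, to the right edge), in percent, ordered from top to bottom by falling median log2 fold change. The dashed lines mark the shares among all tested loci, 28.2% lower and 26.9% higher. The cold, root hair and leaf photosynthesis lists are nearly all red, and the senescence list is mostly blue (7 of 9).

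Tissue markers differed between the genotypes and are given before the other gene groups. Of the root hair genes, 12 of 13 were higher in ddm1cmt2 and 0 lower, against 26.9% of all tested loci higher, with a median of 1.26. Their summed level was 155, 154 and 259 CPM in ddm1cmt2 and 75.4, 83.6 and 74.0 CPM in ddm1nrpe1, with ddm1 at 162 to 222 and ddm1nrpd1 at 10.2 to 14.5 CPM. In ddm1cmt2 replicate 3 was the highest for 12 of the 13. The cell wall genes COBL9 (6.06, 5.66 and 8.86 CPM in ddm1cmt2 and 2.84, 2.87 and 2.86 CPM in ddm1nrpe1, 1.25 ± 0.22), LRX1 (1.37 ± 0.21) and EXT11 (1.79 ± 0.20), the expansin EXPA7 (1.01 ± 0.19) and the regulators RSL4 (1.80 ± 0.29) and RHD6 (1.04 ± 0.29) were among the higher ones. EXPA18 (0.23 ± 0.28) did not pass.

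Markers of other root tissues were higher in 5 of 10 cases (50%) and lower in 0, against 26.9% and 28.2% of all tested loci (median 0.61). The Casparian strip genes CASP1 and ESB1 stood at 22.4, 19.8 and 26.7 CPM in ddm1cmt2 and 11.1, 9.21 and 8.14 CPM in ddm1nrpe1 (1.27 ± 0.16) and 34.6, 33.7 and 42.3 CPM in ddm1cmt2 and 13.7, 15.2 and 12.8 CPM in ddm1nrpe1 (1.40 ± 0.17), and SHR, a regulator of root radial pattern, was higher by 0.72. SCR (-0.16) and the phosphate exporter gene PHO1 (0.17) did not pass. The summed root level was 234 to 283 CPM in ddm1cmt2 and 196 to 210.1 CPM in ddm1nrpe1. Nuclear genes of leaf photosynthesis were higher too, 17 of 18 (94.4%) with 0 lower and a median of 0.83. In ddm1nrpe1 replicate 3 was the highest for 16 of the 18, and leaving out any 1 of the 6 libraries gave 15 to 17 higher. Their sum was 103978 to 117938 CPM in ddm1cmt2, 57906 to 77458 in ddm1nrpe1 and 62905 to 68947 in ddm1. Light-harvesting genes LHCB3 (1.17 ± 0.14), LHCB6 (1.04 ± 0.14) and LHCB5 (1.25 ± 0.15) and the photosystem I gene PSAF (1.24 ± 0.13) led, and RBCS1B (-0.38) did not pass, while LHCB1.1 and LHCB1.3 are near-identical copies that may share reads. RBCS1A (0.33) and RBCS2B (0.42), of the small subunit of Rubisco, failed without some single libraries, RBCS1A without any but ddm1nrpe1 replicate 3 and RBCS2B without ddm1cmt2 replicate 2 or ddm1nrpe1 replicate 1. Of the seed markers 1 of 10 was in the table and 0 were tested, and of the pollen markers ANX1 (0.02) and GEX2 (0.66) were, the latter called only with all libraries or without ddm1cmt2 replicate 1 or ddm1nrpe1 replicate 3. The part of these tissue differences in the groups below was not tested.

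Transcripts of the plastid genome were far more abundant in ddm1cmt2. They took 0.870% ± 0.0787 of counts against 0.232% ± 0.0960 (two-sided exact permutation p = 0.1, the smallest possible), with ddm1 at 1.75% ± 0.201 and ddm1nrpd1 at 0.223% ± 0.0520. Of 110 tested loci, 97 were higher, 51 of them at least 8-fold, and the median log2 fold change was 2.87. The groups did not overlap at 106 of the 110, against 60.0% of all tested loci. The locus ATCG00220 stood at 454, 344 and 333 CPM in ddm1cmt2 and 0.887, 0.496 and 1.02 CPM in ddm1nrpe1 (8.86 ± 0.21, edgeR adjusted p = 1.0e-13), and ATCG00430 at 220.2, 204 and 173 CPM in ddm1cmt2 and 0.710, 0.827 and 0.593 CPM in ddm1nrpe1 (8.12 ± 0.20). ATCG00780 (7.87 ± 0.19) and ATCG00420 (7.35 ± 0.17) were alike. In ddm1 these 4 loci held 587 ± 25.5, 274 ± 44.0, 492 ± 76.8 and 121 ± 12.7 CPM, and in ddm1nrpd1 0.950 ± 0.193, 0.700 ± 0.179, 1.59 ± 0.142 and 0.418 ± 0.141 CPM, so that ddm1 stood with ddm1cmt2 and ddm1nrpd1 with ddm1nrpe1.

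A minority of 8 plastid loci were lower, 5 without ddm1cmt2 replicate 2 or without ddm1nrpe1 replicate 2. ATCG00920 stood at 181, 200.2 and 197 CPM in ddm1cmt2 and 573, 497 and 235 CPM in ddm1nrpe1 (-1.17 ± 0.30) and ATCG00960 at 1.51, 2.49 and 2.10 CPM in ddm1cmt2 and 6.51, 5.95 and 3.56 CPM in ddm1nrpe1 (-1.35 ± 0.27). In both, every ddm1nrpe1 library lay above every ddm1cmt2 library. Plastid transcripts mostly lack long poly(A) tails, so libraries of polyA RNA sample them only in part. Nuclear genes that transcribe organelle genomes were higher in 6 of 9 cases (66.7%) and lower in 2 (22.2%), against 26.9% and 28.2% of all tested loci (median 0.61). The sigma factors of the plastid polymerase SIG5 (74.7, 82.4 and 63.0 CPM in ddm1cmt2 and 22.2, 20.9 and 26.4 CPM in ddm1nrpe1, 1.66 ± 0.12), SIG4 (1.28 ± 0.15) and SIG3 (0.91 ± 0.12) were higher, as were SIG1 (0.61 ± 0.12) and SIG2 (0.63 ± 0.11), with SIG6 (0.30) failing without ddm1cmt2 replicate 2 or ddm1nrpe1 replicate 1 or 2. The phage-type polymerases RPOTP of plastids (-0.75 ± 0.12) and RPOTM of mitochondria (-0.82 ± 0.11) were lower. Mitochondrial loci moved less, with 9 of 46 higher (19.6%) and 5 lower (10.9%), both below the 26.9% and 28.2% of all tested loci. Their share of counts was 0.0424% ± 0.0049 in ddm1cmt2 and 0.0213% ± 0.0058 in ddm1nrpe1, and the groups did not overlap (two-sided exact permutation p = 0.1, the smallest possible). ATMG00020 stood at 276, 258 and 315 CPM in ddm1cmt2 and 102, 89.5 and 53.6 CPM in ddm1nrpe1 (1.79 ± 0.19). ATMG01020 stood at 4.14, 4.08 and 2.56 CPM in ddm1cmt2 and 8.87, 9.54 and 8.57 CPM in ddm1nrpe1 (-1.31 ± 0.19).

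Cold, drought and abscisic acid genes were higher in ddm1cmt2 nearly throughout. Of 13 tested, 12 were higher (92.3%, against 26.9% of all tested loci) and 0 lower, with a median of 2.45. RD29A (AT5G52310), a stress-induced protein gene, stood at 192, 218 and 175 CPM in ddm1cmt2 and 17.3, 13.6 and 14.8 CPM in ddm1nrpe1 (3.68 ± 0.22, edgeR adjusted p = 4.7e-08). Its ddm1 and ddm1nrpd1 means of 15.7 ± 5.43 and 31.2 ± 7.53 CPM lay on the ddm1nrpe1 side. The chloroplast-protecting COR15A and COR15B stood at 48.6, 56.8 and 31.9 CPM in ddm1cmt2 and 1.01, 1.60 and 2.26 CPM in ddm1nrpe1 (4.80 ± 0.28) and at 44.4, 49.1 and 28.8 CPM in ddm1cmt2 and 0.710, 0.496 and 1.08 CPM in ddm1nrpe1 (5.72 ± 0.28). The dehydrin RAB18 was at 21.8, 31.0 and 26.8 CPM in ddm1cmt2 and 0.118, 0.827 and 1.46 CPM in ddm1nrpe1 (5.01 ± 0.36, or 5.76 without ddm1nrpe1 replicate 3). KIN1 (2.45 ± 0.19), KIN2 (2.19 ± 0.11), COR47 (1.77 ± 0.13) and ERD10 (1.46 ± 0.13) were higher as well, and KIN1 and KIN2 are close copies. Their regulators of the CBF family were also higher: CBF3 had a ratio of 128 (95% counting interval 34.9 to 1064), and CBF2 stood at 2.02, 1.46 and 0.822 CPM in ddm1cmt2 and 0.177, 0.165 and 0.162 CPM in ddm1nrpe1 (3.02 ± 0.47). CBF2 was also low in ddm1nrpd1, at 0.267 ± 0.0356 CPM, but its ddm1 libraries, at 2.31, 1.48 and 3.17 CPM, overlapped those of ddm1cmt2. RD20 (0.26 ± 0.24) did not pass, and RD29B (1.51 ± 0.51) failed without ddm1cmt2 replicate 3 or ddm1nrpe1 replicate 2.

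The circadian clock genes differed widely and in both directions. Of 20 tested, 13 were higher in ddm1cmt2 (65%) and 5 lower (25%), with a median of 0.74. Against the 26.9% and 28.2% of all tested loci, only the higher count is above the general share. The pseudo-response regulator PRR5 (AT5G24470), which peaks later in the day and represses morning genes, stood at 51.9, 56.5 and 52.6 CPM in ddm1cmt2 and 0.946, 0.992 and 0.755 CPM in ddm1nrpe1 (5.89 ± 0.19, edgeR adjusted p = 1.7e-12), against 2.83 ± 0.214 CPM in ddm1. FKF1, a blue-light receptor of the afternoon, stood at 11.7, 12.6 and 12.2 CPM in ddm1cmt2 and 0.177, 0.331 and 0.485 CPM in ddm1nrpe1 (5.15 ± 0.27), and GI, its partner, at 110.1, 138 and 129.6 CPM in ddm1cmt2 and 16.9, 14.2 and 14.5 CPM in ddm1nrpe1 (3.05 ± 0.14). GI was lower still in ddm1, at 1.14 ± 0.241 CPM, and in between in ddm1nrpd1, at 68.9 ± 12.2 CPM. ELF4 (2.65 ± 0.18), of the evening complex, and PRR9 (2.64 ± 0.24), PRR3 (2.01 ± 0.30) and PRR7 (1.55 ± 0.10) were higher. Of the morning genes, LHY stood at 22.1, 24.8 and 27.2 CPM in ddm1cmt2 and 229, 195 and 224 CPM in ddm1nrpe1 (-3.13 ± 0.12, edgeR adjusted p = 1.6e-11), RVE8 (-1.50) and LNK2 (-1.18) were lower, and LNK1 was higher (0.87 ± 0.11). CCA1, the close relative of LHY, differed by much less (-0.37 ± 0.11), and failed without ddm1cmt2 replicate 1 or ddm1nrpe1 replicate 3, as did RVE4 (-0.41) without ddm1cmt2 replicate 3. In ddm1 both LHY (647 ± 60.7 CPM) and CCA1 (501 ± 35.7 CPM, against 94.7 ± 7.99 and 122 ± 16.7) were above both double mutants. The labels do not give the hour of harvest of any library.

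**Figure D4:**
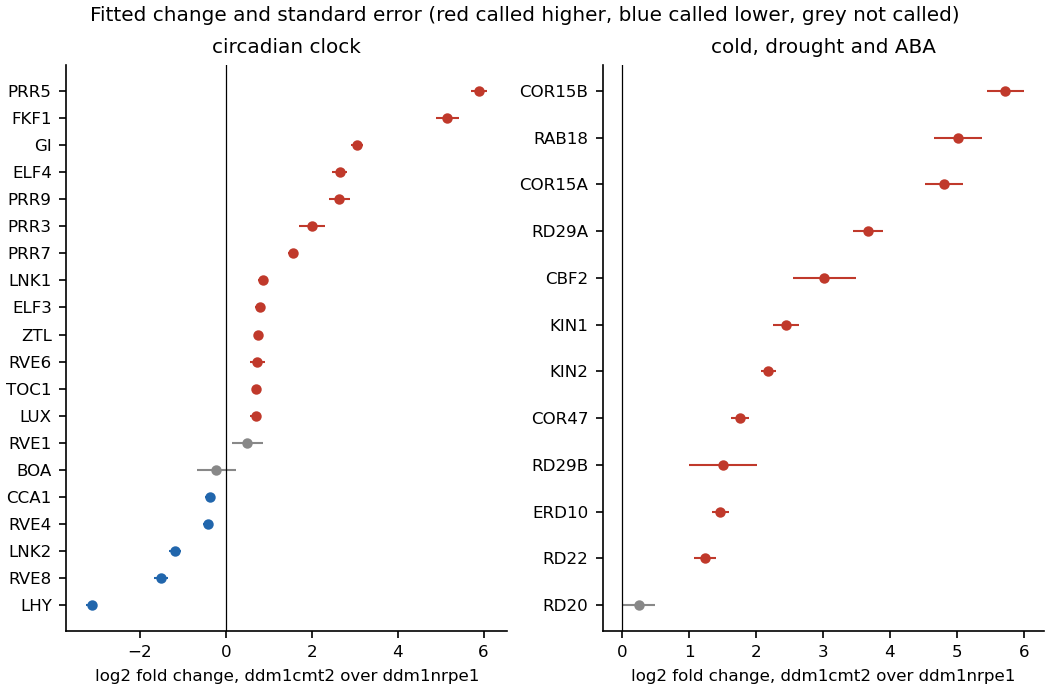
Log2 fold change of ddm1cmt2 over ddm1nrpe1 (x axis) with its standard error for the 20 tested clock genes and for the tested cold, drought and abscisic acid genes, in red where called higher, blue where called lower and grey where not called. CBF3 is left out because its ddm1nrpe1 libraries hold 1 to 3 counts. PRR5, FKF1 and GI lie to the far right and LHY to the far left, and all cold genes drawn but RD20 are called higher.

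Flowering genes were higher in 3 of 6 cases (50%) and lower in 0, against 26.9% and 28.2% of all tested loci (median 1.17). SOC1, a floral integrator, stood at 90.3, 85.2 and 77.2 CPM in ddm1cmt2 and 16.1, 18.4 and 21.6 CPM in ddm1nrpe1 (2.17 ± 0.12), and SVP, a repressor of flowering, at 103, 97.6 and 102 CPM in ddm1cmt2 and 30.0, 33.6 and 35.4 CPM in ddm1nrpe1 (1.61 ± 0.09), with the MADS-box gene FUL (1.74 ± 0.35) as the third. FT (0.73 ± 0.34) did not pass with all libraries and did without ddm1nrpe1 replicate 3 (1.03, edgeR adjusted p = 0.0296). The repressor FLC had 0 counts in all 6 libraries.

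Salicylic acid and immune genes were split between a few pathogenesis-related genes, lower in ddm1cmt2, and many regulators whose calls turned on 1 library. Of 20 tested, 5 were lower (25%, against 28.2% of all tested loci) and 2 higher (10%, against 26.9%), with a median of -0.30. Neither count is above the share of all loci. PR1 (AT2G14610), a secreted defence protein, stood at 36.8, 40.5 and 68.7 CPM in ddm1cmt2 and 1381, 875 and 694 CPM in ddm1nrpe1 (-4.34 ± 0.62, edgeR adjusted p = 3.5e-04), with no overlap, 5.73 ± 5.09 CPM in ddm1 and 726 ± 154 in ddm1nrpd1. PR5 (25.3, 23.5 and 28.9 CPM in ddm1cmt2 and 87.8, 67.8 and 40.2 CPM in ddm1nrpe1, -1.34 ± 0.34) and SAG101 (11.6 ± 3.72 against 24.6 ± 3.74 CPM, -1.08 ± 0.17), a partner of the immune regulator EDS1, were lower too. PR2 (-2.14 ± 0.61) and SARD1 (-1.49 ± 0.55) were called with all libraries, but PR2 failed without ddm1cmt2 replicate 1 and SARD1 whichever library was left out except ddm1cmt2 replicate 3 (-2.56 without it). The 2 higher genes were the resistance genes RPP4 (133, 159.6 and 155 CPM in ddm1cmt2 and 45.1, 42.8 and 44.2 CPM in ddm1nrpe1, 1.76 ± 0.09) and SNC1 (261, 326 and 311 CPM in ddm1cmt2 and 144, 133 and 140.4 CPM in ddm1nrpe1), neighbours in one cluster.

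The library ddm1cmt2 replicate 3 stood apart here, since it held the highest ddm1cmt2 level for 18 of the 20 genes, whereas it was the highest of its genotype at 8719 of 24839 loci overall. In ddm1nrpe1, replicate 1 was the highest for 18 of the 20. The transcription factor WRKY70 stood at 19.7, 16.0 and 47.0 CPM in ddm1cmt2 and 46.8, 33.5 and 31.3 CPM in ddm1nrpe1, CBP60G, an activator of salicylic acid synthesis, at 8.07, 8.40 and 25.4 CPM in ddm1cmt2 and 23.7, 19.2 and 13.7 CPM in ddm1nrpe1, and PBS3, an enzyme of that synthesis, at 11.5 ± 10.8 against 11.0 ± 2.85 CPM, its highest library being ddm1cmt2 replicate 3. All 3 overlapped between the genotypes through that replicate. Without it, 13 of the 20 were lower, among them WRKY70 (-1.05), CBP60G (-1.17), PBS3 (-1.05) and PR2 (-3.12), and without ddm1cmt2 replicate 1 the number was 3. ICS1, another enzyme of salicylic acid synthesis, leaned the other way. It did not pass with all libraries (0.50 ± 0.24) and was called higher without ddm1cmt2 replicate 1 (0.68) or replicate 2 (0.70). Summed without PR1, the list's level was 623, 704 and 902 CPM in ddm1cmt2 and 733, 623 and 542 CPM in ddm1nrpe1, so the groups overlapped.

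**Figure D5:**
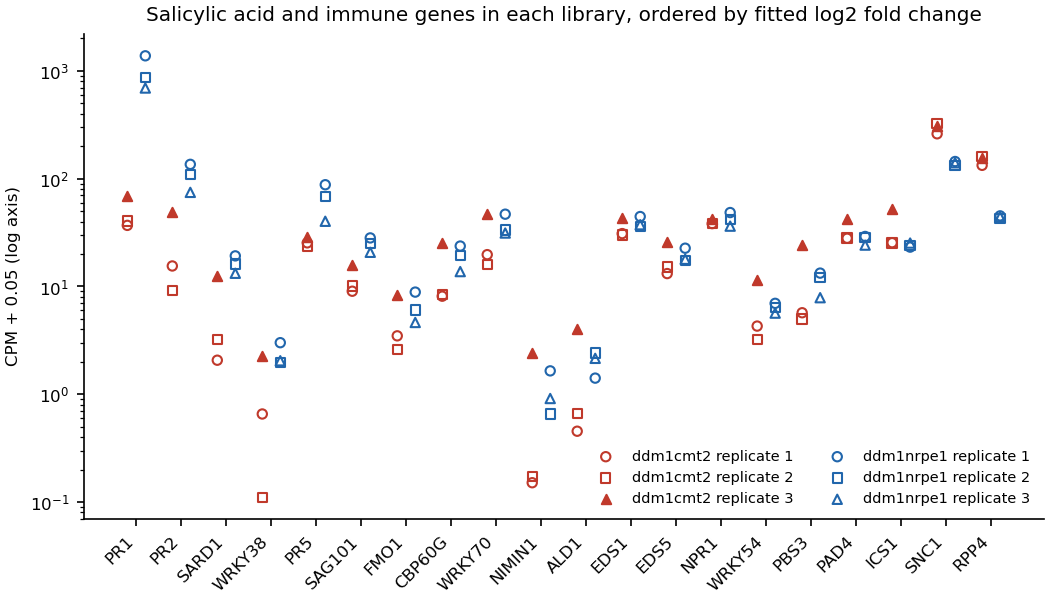
Level of each of the 20 salicylic acid and immune genes in CPM plus 0.05 (log axis) in the 3 ddm1cmt2 libraries (red) and the 3 ddm1nrpe1 libraries (blue), with 1 symbol per replicate, ordered by fitted log2 fold change. The filled triangles, ddm1cmt2 replicate 3, are the highest red points for 18 of 20 genes. The groups lie far apart for PR1 at the left, and are separate by smaller factors for SNC1 and RPP4 at the right.

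Jasmonate genes leaned the other way by count, 6 of 14 higher (42.9%) and 1 lower (7.14%), against 26.9% and 28.2% of all tested loci (median 0.38). The lower count was 2 without ddm1cmt2 replicate 3, the highest of its genotype for 10 of the 14. The synthesis genes AOS (117, 123 and 105 CPM in ddm1cmt2 and 51.2, 56.7 and 58.3 CPM in ddm1nrpe1, 1.05 ± 0.11) and LOX3 (1.38 ± 0.18), the regulator MYC2 (37.7, 39.2 and 40.3 CPM in ddm1cmt2 and 17.2, 17.2 and 16.4 CPM in ddm1nrpe1, 1.21 ± 0.12) and the storage protein gene VSP2 (42.8, 42.8 and 27.1 CPM in ddm1cmt2 and 2.54, 3.42 and 5.61 CPM in ddm1nrpe1, 3.28 ± 0.26) were higher. LOX2 was lower, at 128, 146 and 214 CPM in ddm1cmt2 and 611, 597 and 423 CPM in ddm1nrpe1 (-1.74 ± 0.42). With LOX2, the list's summed level was lower in ddm1cmt2, at 517, 636 and 628 CPM against 947, 872 and 698 CPM. Without LOX2 it was higher, at 389, 490 and 414 CPM in ddm1cmt2 and 336, 275 and 274 CPM in ddm1nrpe1. AOC2 (0.98) and VSP1 (1.26) were called higher, but AOC2 failed whichever library was left out, and VSP1 did so for every library except ddm1nrpe1 replicate 3 (1.98 without it).

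Heat shock genes were lower in 5 of 11 cases (45.5%) and higher in 0, against 28.2% and 26.9% of all tested loci (median -0.60). In ddm1cmt2 replicate 3 was the highest for 9 of the 11, and in ddm1nrpe1 replicate 3 was the highest for 0. HSFA2, the main factor of acquired heat tolerance, stood at 0.606, 0.608 and 1.19 CPM in ddm1cmt2 and 3.96, 3.80 and 2.21 CPM in ddm1nrpe1 (-2.07 ± 0.39), HSFA7A at 4.64, 3.10 and 4.20 CPM in ddm1cmt2 and 9.88, 13.8 and 8.73 CPM in ddm1nrpe1 (-1.47 ± 0.20) and MBF1C, a co-activator, at 10.5, 8.82 and 15.8 CPM in ddm1cmt2 and 25.4, 27.2 and 20.2 CPM in ddm1nrpe1 (-1.07 ± 0.24). HSP101 (-0.60) and HSFB1 (-0.45) overlapped between genotypes and failed without several libraries. The count was 3 without ddm1cmt2 replicate 2 or ddm1nrpe1 replicate 1 or 2 and 8 without ddm1nrpe1 replicate 3, and it was 7 without ddm1cmt2 replicate 3. BIP3, a chaperone gene of the endoplasmic reticulum, went from 0.02 (not called) to -1.32 without that library (edgeR adjusted p = 7.3e-04).

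Senescence genes were lower in 7 of 9 cases, against 28.2% of all loci, and higher in 1 (median -0.73). SEN1, a gene induced by darkness and ageing, stood at 5.15, 7.97 and 14.3 CPM in ddm1cmt2 and 52.5, 65.9 and 106 CPM in ddm1nrpe1 (-3.03 ± 0.37), and NAP, a NAC factor of leaf ageing, at 6.46, 4.81 and 9.13 CPM in ddm1cmt2 and 22.7, 19.7 and 21.6 CPM in ddm1nrpe1 (-1.67 ± 0.37). The chlorophyll b reductase gene NYC1 was the higher one, at 128, 145 and 139 CPM in ddm1cmt2 and 61.3, 66.4 and 66.0 CPM in ddm1nrpe1 (1.09 ± 0.09). SAG13, SAG29, ORE1, SGR1 and PAO were called lower and each failed without at least 2 of the single libraries, so that the lower count was 2 without ddm1cmt2 replicate 1 and 4 without ddm1cmt2 replicate 2 or ddm1nrpe1 replicate 2. SAG13 alone was -2.99 without ddm1cmt2 replicate 3.

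Flavonoid and anthocyanin genes were higher in 11 of 18 cases (61.1%) and lower in 1 (5.56%), against 26.9% and 28.2% of all tested loci (median 0.72). The flavonol regulator MYB12 stood at 7.67, 6.57 and 6.30 CPM in ddm1cmt2 and 3.02, 2.87 and 1.40 CPM in ddm1nrpe1 (1.49 ± 0.23), the anthocyanin transporter gene TT19 at 8.28, 11.5 and 7.49 CPM in ddm1cmt2 and 3.96, 3.53 and 4.53 CPM in ddm1nrpe1 (1.20 ± 0.21) and the glycosyltransferase gene UGT78D2 at 35.3, 36.4 and 34.1 CPM in ddm1cmt2 and 22.4, 17.7 and 19.6 CPM in ddm1nrpe1 (0.83 ± 0.10). CHS, the entry enzyme, was higher by 0.44 and F3H, the next step but one, was the lower gene (-0.43). The anthocyanin regulator PAP1 stood at 1.82, 2.43 and 1.64 CPM in ddm1cmt2 and 0.651, 0.0551 and 0.323 CPM in ddm1nrpe1 (2.54 ± 0.46, or 3.33 without ddm1nrpe1 replicate 1), while PAP2 (1.19 ± 0.56) passed only without ddm1cmt2 replicate 1 (1.61). Of the aliphatic glucosinolate genes 4 of 12 were higher (33.3%) and 1 lower (8.33%), against 26.9% and 28.2% of all tested loci (median 0.32). The higher count was 2 without ddm1nrpe1 replicate 2 and 8 in a fit of the 6 libraries alone. CYP83A1 (0.37), called higher, failed whichever of the 6 libraries was left out (edgeR adjusted p from 0.0544 to 0.118). The regulators MYB29 (18.1, 17.6 and 16.8 CPM in ddm1cmt2 and 6.45, 4.96 and 8.14 CPM in ddm1nrpe1, 1.42 ± 0.16) and MYB28 (0.63 ± 0.11) were higher, and BCAT4 (-0.58 ± 0.17), of chain elongation, lower. In the indole branch, the regulator MYB34 (33.8, 33.6 and 30.6 CPM in ddm1cmt2 and 12.4, 11.6 and 17.1 CPM in ddm1nrpe1, 1.25 ± 0.15) and the enzymes CYP79B2 (0.99 ± 0.19) and CYP79B3 (0.80 ± 0.14) were higher. The camalexin enzyme CYP71A13 (-1.96 ± 0.51, or -2.70 without ddm1cmt2 replicate 3) was lower, and so was MYB51 (-0.87), which failed without ddm1cmt2 replicate 1 or 2 or ddm1nrpe1 replicate 1 or 2. Of these 9 genes 3 were higher (33.3%) and 2 lower (22.2%), near the 26.9% and 28.2% of all tested loci (median -0.12). The lower count was 4 without ddm1cmt2 replicate 3, the highest of its genotype for 8 of the 9, and 1 where MYB51 failed.

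Cell division and DNA damage genes gave few calls. Of 15 cell division genes 5 were higher (33.3%) and 0 lower, against 26.9% and 28.2% of all tested loci (median 0.25). The 5 were higher by 0.25 to 0.54 on the log2 scale, the largest being the mitotic cyclin CYCB1;2 (0.54 ± 0.20). The count was 0 without ddm1cmt2 replicate 1 or ddm1nrpe1 replicate 1, 1 without ddm1cmt2 replicate 2 or ddm1nrpe1 replicate 2 and 8 without ddm1cmt2 replicate 3, and it was 0 in a fit of the 6 libraries alone or in a test against a 1.2-fold change and 1 with TMM on protein-coding loci. Among 12 DNA damage genes 2 were lower (16.7%) and 1 higher (8.33%), against 28.2% and 26.9% of all tested loci (median 0.09). NAC044, a factor of the damage checkpoint, was lower at 1.51, 1.16 and 1.37 CPM in ddm1cmt2 and 5.15, 4.35 and 3.29 CPM in ddm1nrpe1 (-1.68 ± 0.23) with no overlap. GMI1 (-0.68) failed without ddm1cmt2 replicate 3, and PARP1 (0.43) failed without ddm1cmt2 replicate 2 or 3 or ddm1nrpe1 replicate 1 or 2. The higher count was 0 to 2 when single libraries were left out, 2 without ddm1cmt2 replicate 3 or ddm1nrpe1 replicate 3.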

How the data were processed

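PolyA RNA of 2-week-old seedlings was sequenced, and the deposited table holds raw read counts per locus and CPM for 12 libraries, with the unit of each column per the file headers. The deposited CPM values of the authors were used only to check the columns. Per the submitters' processing notes, tools included Trimmomatic, TopHat, HTSeq and edgeR with the TAIR10 build. No source used here gives their versions, the strand setting or the treatment of multiple matches.

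From the counts, edgeR 4.0.16 (R 4.3.3) fitted one robust quasi-likelihood model to all 12 libraries in 4 groups, with TMM scaling, filterByExpr and 8 residual degrees of freedom. Of 25069 loci, 24839 were tested, with Benjamini-Hochberg adjustment over all of them and a threshold of 0.05. The standard error is the log2 fold change over the square root of F. Bounds use a floor of 3 counts over a group, and count ratios have exact 95% intervals. Depth was 10.8 to 18.8 M counts in the 6 compared libraries and 7.84 to 24.8 M over all 12. Symbols and locus types came from RefSeq (22869 of 22968 gene identifiers matched), and symbols missing there are the usual names of the listed loci.

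The loci named are NRPE1, CMT2, NRPD1 and DDM1, and the 6 highest and 6 lowest called TE loci and the 8 highest and 8 lowest protein-coding loci by fold (no overlap, and a mean of 1 CPM or more on the higher side). To these come the 5 protein-coding loci each way with the smallest adjusted p, up to 5 members per list by adjusted p, any member of the methylation lists, and 4 plastid and 2 mitochondrial loci each way. Other list members named to show calls that fail, or members that did not pass, were chosen after their values were seen. The genotypes, lists and sortings were chosen with earlier results of these data known. Alternatives were limma 3.58.1 (voom), DESeq2 1.42.0, other scalings and filters, the 6 libraries alone, a replicate block, a test against a 1.2-fold change, no organelle loci and each library left out in turn.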

Additional observations from a re-analysis of the deposited data

How the results depend on the processing

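No called locus was called in the opposite direction under any alternative, and no total moved by over 1.5 times. Over the 11 alternatives that keep all 6 libraries, 4928 to 6838 loci were higher in ddm1cmt2 and 5270 to 7441 lower, both lowest in the test against a 1.2-fold change, which kept 10198 of the 13687 calls. TE loci numbered 230 to 309 higher and 810 to 915 lower. Leaving out one library at a time gave 5646 to 6627 loci higher and 5814 to 6927 lower, TE counts of 245 to 326 and 832 to 864, and a TE share difference of -1.82 to -1.50 percentage points. TMM scaling on protein-coding loci moved the median of all loci to -0.04. Replicate numbers do not pair the samples (correlations of deviations of -0.12, -0.09 and -0.29 for replicates 1, 2 and 3), and with the replicate block 6492 loci were higher and 6806 lower, 13156 of the 13687 calls being kept. Among values for single named loci under the alternatives, 182 lost the call, 63 gained it and 5262 kept their side of the threshold. Counts for a list or class moved by over 1.5 times in 67 cases and stayed within that in 885. Of the 67, 2 follow from leaving the plastid loci out. Among the rest, TMM on protein-coding loci gave 2 methyltransferase genes lower in place of 1, the 6 libraries alone gave 1 leaf photosynthesis gene lower in place of 0, and the test against a 1.2-fold change gave 3 clock genes and 3 heat shock genes lower in place of 5 each, and 4 senescence genes lower in place of 7. In place of 5 cell division genes higher there were 2 with the replicate block, 1 with TMM on protein-coding loci, and 0 with the 6 libraries alone or in the 1.2-fold test. The 1 higher gene of post-transcriptional silencing failed in these same 4 settings. With 3 libraries a group and 10.8 to 18.8 M counts, loci near 1 CPM rest on few counts, and for loci at 0 only bounds can be given. The cause of lost calls was not tested.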

Other observations

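Neighbouring loci often differed in the same direction. Taking called differences of at least 2-fold along the gene order, 21 runs of 5 or more successive tested loci were lower in ddm1cmt2 and 2 were higher. The longest run lay on chromosome 1 from AT1G40630 to AT1G41710 and held 11 pseudogene loci with a median log2 fold change of -4.43, summing to 149 CPM in ddm1cmt2 and 939 CPM in ddm1nrpe1, with 273 CPM in ddm1 and 569 CPM in ddm1nrpd1. These runs were picked after the values were seen, neighbouring identifiers may share reads, and no test was made of their number.

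Among protein-coding runs, 6 loci from AT5G07550 to AT5G07580 were lower, led by the glycine-rich protein gene GRP19 at 1.21, 6.45 and 11.0 CPM in ddm1cmt2 and 107, 106 and 87.8 CPM in ddm1nrpe1 (-3.98 ± 0.53). GRP19 was at 3.48 ± 2.30 CPM in ddm1 and 138 ± 16.8 CPM in ddm1nrpd1. GRP20, its neighbour, was lower by the same test (-2.41 ± 0.23). In the receptor kinase cluster from AT4G23200 to AT4G23230, 5 loci were lower with all libraries. Of these, CRK13 and AT4G23215 failed without ddm1cmt2 replicate 1, ddm1cmt2 replicate 2 or ddm1nrpe1 replicate 1, and were at -2.40 and -3.31 without ddm1cmt2 replicate 3, where CRK12 and CRK14 were at -2.10 and -2.37.

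On the higher side, 5 loci from AT5G52290 to AT5G52330, which include RD29A and RD29B, had a median of 2.40 and summed to 207 CPM in ddm1cmt2 against 19.6 CPM in ddm1nrpe1. RD29B alone failed, without ddm1cmt2 replicate 3 or ddm1nrpe1 replicate 2. From AT2G22980 to AT2G23030, 5 loci had a median of 1.47. Of 9 tested loci in the resistance gene cluster that holds RPP4, SNC1 and RPP5, 5 were higher and 1 lower. Of all tested loci, 26.9% were higher and 28.2% lower. Beside RPP4 and SNC1, RPP5 stood at 187, 239 and 232 CPM in ddm1cmt2 and 83.0, 86.2 and 88.9 CPM in ddm1nrpe1 (1.35 ± 0.12) and AT4G16880 at 37.7, 31.3 and 30.9 CPM in ddm1cmt2 and 3.37, 4.08 and 4.90 CPM in ddm1nrpe1 (3.01 ± 0.17), while AT4G16870 was lower (-1.38 ± 0.28). Close copies in this cluster may share reads.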
